A study of Caenorhabditis elegans with 16 samples.

Results

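The C-type lectin genes of Caenorhabditis elegans, named clec, were taken as every gene of the deposited count table whose name begins with clec-, which gave 220 of 19122 genes. They were measured by mRNA sequencing in 16 samples of synchronized whole L4 animals grown at 20 °C, 4 for each of 4 genotypes. The transgenic animals carried SKN-1t[NNNN] as the insertion mgTi21, SKN-1t[NDNN] as mgTi42 or SKN-1t[DNDD] as mgTi41, each in an unc-119(ed3) III background. They are called NNNN, NDNN and DNDD below, as in the sample descriptions. The wild type was strain N2, which carries neither the unc-119 allele nor a transgene. SKN-1t is a truncated, constitutively active form of the stress-response transcription factor SKN-1, here tagged with HA and GFP and driven by the rpl-28 promoter, which is active in all tissues. The letters give the residue at the 4 N-glycosylation motifs of the endogenous isoform SKN-1A. The study states that SKN-1A is glycosylated at 1 or more of these sites, in a pattern that is not known. N is the unaltered asparagine and D is an aspartate that mimics the edited residue, so that NNNN has 0, NDNN has 1 and DNDD has 3 of these substitutions. Each transgenic genotype was a single strain, so an effect of the form of SKN-1t and an effect of that strain's insertion or background cannot be told apart. The sample labels and the study's strain list pair the strain names of the NDNN and DNDD lines in opposite ways, and the samples are named here by the genotype in their labels. The same 4 wild type samples served in all 3 comparisons with the wild type.

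C-type lectins carry a fold that in many animal proteins binds carbohydrates, often with calcium, and the nematode has an unusually large family of them. Many of the encoded proteins are predicted to be secreted, and sets of clec genes that differ from pathogen to pathogen change in mRNA level when worms are infected, so the genes are widely used as readouts of the intestinal and epidermal defence response. Some members have other roles, in neurons or in the germ line, and for most members the ligand is not known.

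Most of the family was barely expressed at this stage. Of the 220 genes, 87 never reached 10 counts in any sample and 85 averaged under 0.1 CPM, whereas 87 averaged at least 1 CPM and 13 at least 100 CPM. CPM are read counts scaled to library size, here with TMM factors over all 16 samples. The genes lay on every chromosome, with 83 on chromosome V, 48 on IV, 43 on II, 30 on I, 13 on III and 3 on X. A gene was tested against the wild type only if its counts passed a filter on low values, and 118 of the 220 members failed it in the fit for NNNN, 116 in that for NDNN and 115 in that for DNDD. Those members had too few reads for a comparison at this depth. By the same minimum applied within each group, 81, 84 and 88 of the tested members passed in both groups, while 4, 6 and 6 passed only in the transgenic samples and 10, 7 and 3 only in the wild type. The other 7, 7 and 8 reached it in neither group alone. Members that passed in a single group had to differ in order to be tested, so the counts below describe the tested members and not the family at large.

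Total counts ranged from 23806929 to 30457636 per sample. Reads assigned to skn-1 include those from the transgene and averaged 302 ± 26.9 CPM in NNNN, 283 ± 28.4 in NDNN, 238 ± 22.4 in DNDD and 123 ± 9.03 in wild type animals (mean ± SD, n = 4 each). Lists of marker genes also moved with genotype. The summed level of 6 yolk protein genes (vit-1 to vit-6), which the intestine of adults expresses, was 95.0 to 221 CPM in NNNN, 109 to 867 in NDNN, 142.99 to 3710 in DNDD and 4267 to 23808 CPM in wild type samples. That of 3 adult cuticle collagens (col-7, col-19 and col-62) was 0.274 to 2.23 CPM in NNNN, 0.290 to 69.0 in NDNN, 0.681 to 301 in DNDD and 92.1 to 895 CPM in wild type samples. Of 7 intestinal markers in the table, 2, 3 and 3 were called lower in NNNN, NDNN and DNDD, ges-1 in each. Their summed level was 7888 to 9833, 7795 to 8568 and 6973 to 8609 CPM in the transgenic groups against 11545 to 16119 CPM in wild type animals. Of 6 hypodermal markers, 4 were called higher in NNNN, 4 in NDNN and 0 in DNDD animals (3 in NDNN and 3 in DNDD with samples of the same replicate number as a block). Their sum was 850.4 to 1139, 1176 to 1305 and 721 to 1224 CPM against 295 to 813 CPM in the wild type. Among 6 muscle and 6 neuronal markers none was called. Among 6 germline markers glp-1 alone was called, higher in NNNN and, without the block only, in NDNN, and no marker of any list was at 0 in all samples. The part of these markers' differences in the clec results was not tested. In whole animals a different stage reached at collection, fewer cells of a type and less RNA per cell cannot be told apart. A difference in stage between the genotypes was not tested either, and it would be confounded with genotype.

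Against the wild type, more tested clec genes were called lower than higher in every strain. With a gene called at a log2 fold change beyond 1 and a Benjamini-Hochberg adjusted p below 0.01 in edgeR's quasi-likelihood test, 12 members were higher and 23 lower in NNNN animals, where 7.03% of all tested genes were called higher and 6.12% lower. In NDNN animals 14 members were higher and 23 lower, beside 6.85% and 3.34% of all tested genes. In DNDD animals 9 members were higher and 18 lower, beside 3.44% and 3.35%. As shares of the tested members the lower calls came to 22.5%, 22.1% and 17.1% in the 3 strains, and the higher calls to 11.8%, 13.5% and 8.57%. Over the tested members the log2 fold change had a median of -0.40, -0.14 and -0.33 in NNNN, NDNN and DNDD, beside 0.14, 0.08 and 0.04 for all tested genes. In each strain every called member had its 4 transgenic samples entirely above or below the 4 wild type samples. The calls were made on these same samples, so this separation adds no support, and its share among all called genes was not counted. Counted without regard to the test, the samples of 16 members lay above and those of 41 below the wild type in NNNN (14.9% and 22.4% of all tested genes), with 18 and 35 in NDNN (16.1% and 20.2%) and 12 and 33 in DNDD (12.5% and 19.2%).

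The calls for DNDD and, less so, for NDNN depended on whether samples with the same replicate number were treated as a block. With the block, DNDD animals had 19 members called higher and 24 lower (11.8% and 4.38% of all tested genes), among them every call made without it. NDNN animals then had 11 higher and 20 lower (6.51% and 3.75%), of which 11 and 19 were also called without it. In NDNN animals the number of lower calls was 13 without wild type replicate 2, and that of higher calls was 9 without wild type replicate 2, without wild type replicate 3 or without NDNN replicate 1. From replicates 3 and 4 alone, 8 members were called higher and 3 lower in NDNN animals, against 11 and 28 from replicates 1 and 2 alone. In NNNN animals replicates 3 and 4 gave 12 lower calls and replicates 1 and 2 gave 31. The shares of all tested genes called in these reduced sets were not counted. A general change in the number of calls therefore cannot be told apart from a change in the clec genes. Neither reduced set changed the sign of a called estimate.

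Some calls were lost when a single sample was left out, and several of these were lost whichever sample it was or nearly so. Of the 8 fits that left out 1 sample each, all kept the call for 26 of the 35 members called in NNNN, 22 of the 37 in NDNN and 17 of the 27 in DNDD. Calls lost in at least 4 of the 8 fits were, in NNNN, those of clec-6 (7 fits), clec-53 and clec-60 (6), clec-56 and clec-144 (5) and clec-76 (4). In NDNN they were those of clec-78 (8 fits), clec-144 and clec-218 (7), clec-4, clec-7, clec-64, clec-221 and clec-230 (6), clec-8, clec-56, clec-67 and clec-146 (5) and clec-53 (4). In DNDD they were those of clec-71 and clec-86 (7 fits), clec-56 (6), clec-74 (5) and clec-146 and clec-210 (4). The others were lost in 1 to 3 fits, namely clec-57, clec-146 and clec-206 in NNNN, clec-63 and clec-70 in NDNN, and clec-2, clec-17, clec-60 and clec-83 in DNDD.

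In all, 47 members were called in at least 1 strain, 16 of them higher and 31 lower. Because the 3 comparisons share their wild type samples, a call in several strains is not independent of the others, and the grouping of genes by strain below only orders the description. The genes called lower stood at a median of 15.9 CPM per kb of gene length in the wild type, against 1.25 CPM per kb for the genes called higher and 3.28 CPM per kb for tested members not called. The classes were set by the change against these same wild type samples. That alone favours higher wild type levels among genes called lower than among genes called higher. A fall is also harder to detect in a gene of low level, and the difference in level was not tested.

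**Figure D1:**
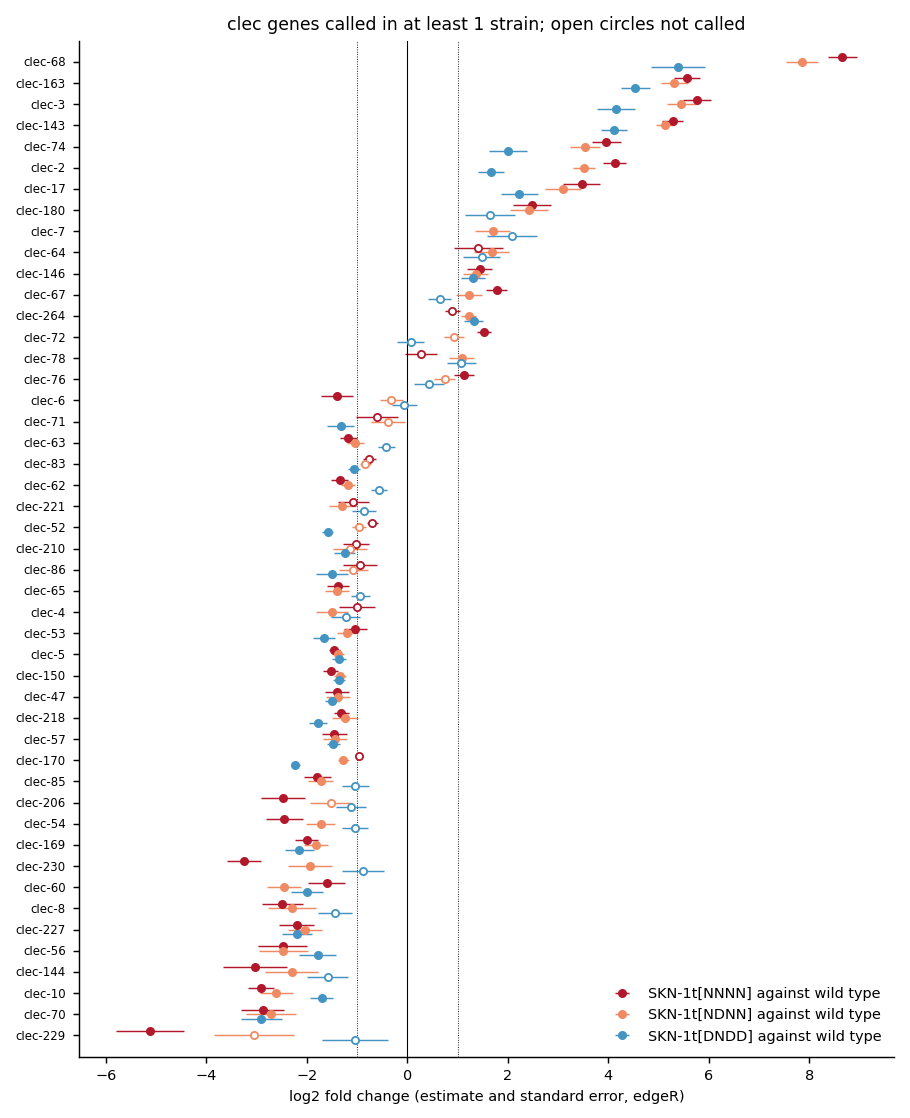
Log2 fold change against the wild type of the 47 clec genes called in at least 1 strain, with the edgeR estimate as a point and its standard error as a bar. Filled points were called (beyond the dotted lines at -1 and 1, adjusted p below 0.01) and open points were not. The 16 genes above the change of side lie right of 0 in every strain tested, and the 31 below it lie left of 0, with clec-68 at 8.66 and clec-229 at -5.12 in NNNN as the extremes. In that comparison both of these genes passed the filter on low values in a single group only.

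A set of 8 genes, clec-2, clec-3, clec-17, clec-68, clec-74, clec-143, clec-146 and clec-163, were higher in all 3 transgenic strains. Their log2 fold changes against the wild type ran from 1.31 for clec-146 in DNDD to 8.66 for clec-68 in NNNN. The median log2 fold change over the 8 genes was 4.70 in NNNN, 4.33 in NDNN and 3.17 in DNDD animals.

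The most abundant of them was clec-3 (WBGene00016577, minus strand of chromosome II, bases 3017468 to 3019907 of WBcel235), which encodes a protein with C-type lectin domains whose ligand is not established. It stood at 1338, 1466, 1205 and 982 CPM in the 4 NNNN samples, 1179, 1131, 961 and 838 CPM in NDNN, 667, 526, 298 and 283 CPM in DNDD and 27.0, 24.1, 14.7 and 33.9 CPM in wild type samples. No sample of any transgenic strain came near the wild type range, and the DNDD samples all lay below those of the other transgenic strains. The log2 fold change was 5.76 ± 0.28 in NNNN, 5.46 ± 0.28 in NDNN and 4.16 ± 0.38 in DNDD animals, given with its standard error (edgeR adjusted p = 5.13e-06, 6.50e-06 and 0.000215). These estimates correspond to 54.1, 43.9 and 17.9 times the wild type level. Per kb of gene length it ranked first of the 220 members in NNNN and NDNN animals, with 895 ± 149 and 737 ± 113 CPM per kb. It took rank 2 in DNDD with 318 ± 133, against rank 33 in the wild type with 17.9 ± 5.71 CPM per kb (mean ± SD, n = 4 each).

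The share of the family's reads that came from clec-3 was higher in every transgenic sample than in the wild type. It was 19.7% to 23.8% of all clec reads in NNNN, 15.4% to 21.4% in NDNN and 5.41% to 12.05% in DNDD samples, against 0.223% to 0.499% in wild type samples. The 220 genes together took 0.529% to 0.610% of all counts in NNNN, 0.522% to 0.588% in NDNN and 0.510% to 0.576% in DNDD, against 0.604% to 0.673% in the wild type. In this share of unscaled counts the highest NNNN sample overlapped the lowest wild type sample. In summed CPM, scaled with the TMM factors, these samples did not overlap, at 6177 CPM in NNNN and 6602 CPM in the wild type. Without clec-3 the ranges were 0.403% to 0.467%, 0.424% to 0.470% and 0.454% to 0.535% in the 3 transgenic groups against 0.602% to 0.671% in the wild type, and no transgenic sample reached the wild type range.

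**Figure D2:**
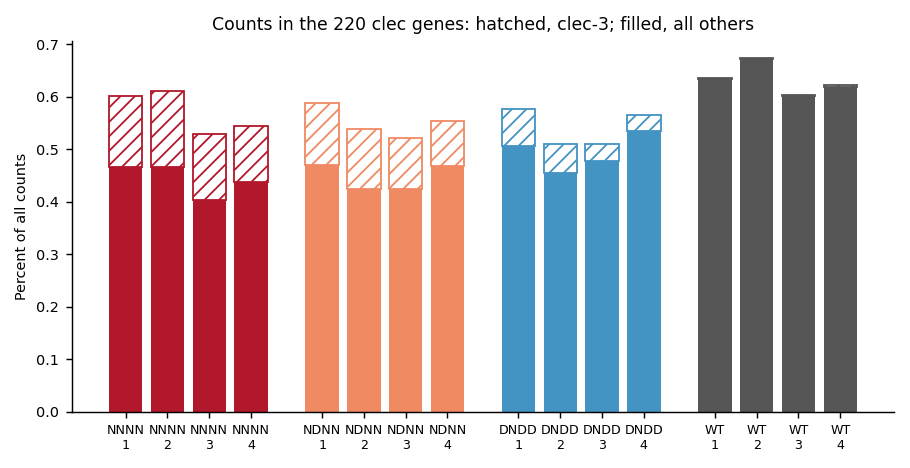
Percent of all counts that fell in the 220 clec genes in each of the 16 samples, grouped by genotype and numbered by replicate. The filled part is all clec genes other than clec-3 and the hatched part is clec-3, which is barely visible in the wild type and takes 19.7% to 23.8% of the bar in NNNN.

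The neighbour of clec-3, clec-2 (WBGene00015198, bases 3020562 to 3023431 on the same strand), rose as well, from a far lower base. Its level was 26.1, 27.2, 20.8 and 18.3 CPM in NNNN, 13.5, 18.3, 15.3 and 14.2 CPM in NDNN, 5.33, 5.07, 3.51 and 4.01 CPM in DNDD and 1.16, 1.30, 1.21 and 2.02 CPM in wild type samples. The 4 groups were ordered, with no overlap except between NNNN and NDNN, whose nearest samples met at 18.3 CPM. Log2 fold changes against the wild type were 4.13 ± 0.22, 3.52 ± 0.22 and 1.66 ± 0.26 in NNNN, NDNN and DNDD (adjusted p = 8.76e-06, 2.11e-05 and 0.0023).

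The largest fold changes of the family were those of clec-68 (WBGene00018970, chromosome IV, bases 3926417 to 3929105), a gene that was nearly silent in the wild type. It stood at 45.6, 50.2, 60.5 and 50.9 CPM in NNNN, 30.8, 33.5, 30.5 and 26.4 CPM in NDNN and 9.04, 6.36, 3.88 and 3.82 CPM in DNDD, against 0.166, 0.261, 0.0417 and 0.0761 CPM in the wild type. All 4 groups were separate, and within DNDD replicates 1 and 2 were above replicates 3 and 4. The log2 fold changes of 8.66 ± 0.30, 7.86 ± 0.32 and 5.38 ± 0.54 (adjusted p = 5.69e-07, 1.59e-06 and 0.000315) rest on 13 reads in all 4 wild type libraries together, so their size is imprecise. No wild type library held more than 6 of these reads, so clec-68 passed the filter only through the transgenic samples. It had to differ in order to be tested, and these p-values are no separate support for the rise.

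A similar order was seen for clec-143 and clec-163. For clec-143 (WBGene00014063, chromosome II, bases 10468202 to 10470297) the samples gave 54.4, 52.6, 75.9 and 63.1 CPM in NNNN, 53.0, 54.1, 54.3 and 64.9 CPM in NDNN, 41.01, 28.9, 22.7 and 25.3 CPM in DNDD and 2.24, 1.56, 1.29 and 1.75 CPM in wild type animals. Its log2 fold changes were 5.28, 5.13 and 4.11. For clec-163 (WBGene00012661, chromosome III, bases 10794349 to 10796369) they gave 4.82, 4.85, 5.56 and 3.68 CPM in NNNN, 4.18, 4.41, 4.33 and 3.12 CPM in NDNN and 2.87, 2.74, 2.13 and 2.17 CPM in DNDD, against 0.125, 0.0869, 0.0834 and 0.114 CPM in the wild type. The log2 fold changes of 5.57, 5.32 and 4.54 rest on 10 wild type reads in all, at most 3 in a library. Like clec-68, clec-163 passed the filter only through the transgenic samples. In both genes the NNNN and NDNN samples overlapped, and the DNDD samples were lower than these and far above the wild type.

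In the same class, clec-74 stood at 13.3, 13.7, 15.4 and 16.4 CPM in NNNN, 12.4, 13.1, 9.10 and 10.005 CPM in NDNN, 5.11, 5.45, 2.80 and 2.89 CPM in DNDD and 1.20, 0.608, 1.502 and 0.761 CPM in the wild type. Its call in DNDD (log2 fold change 1.999 ± 0.37, adjusted p = 0.00524) was lost in 5 of the 8 fits that left out a sample. The log2 fold changes of clec-17 were 3.47, 3.10 and 2.23. The smallest and most even increase of the class was that of clec-146, at 1.44 ± 0.24, 1.36 ± 0.25 and 1.31 ± 0.23 in NNNN, NDNN and DNDD.

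**Figure D3:**
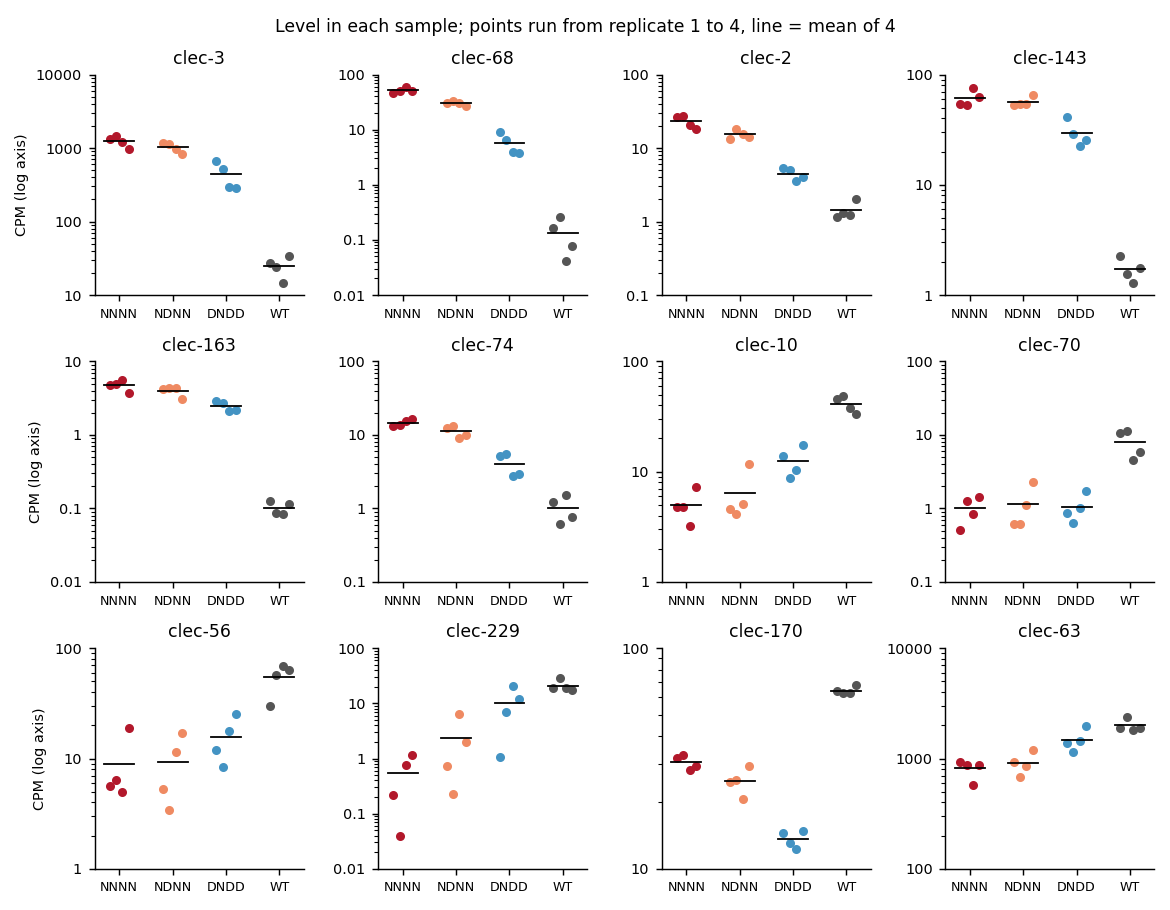
Level of 12 clec genes in each sample in CPM on log axes, for NNNN, NDNN, DNDD and wild type (WT), with points for replicates 1 to 4 from left to right and a line at the mean of 4. The first 6 genes were called higher in all 3 strains and step down through the transgenic groups to the wild type, as clec-68 does. Of the last 6, called lower, clec-229 steps up in the same order, clec-170 is lowest in DNDD, and clec-70 is about as low in all 3 transgenic groups.

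A further 8 members were called higher in 1 or 2 strains. Both clec-67 and clec-180 were higher in NNNN and NDNN animals. The level of clec-180 was 256, 329.9, 354 and 321 CPM in NNNN and 289, 355, 237 and 351 CPM in NDNN, against 116, 47.4, 32.1 and 49.4 CPM in the wild type. The log2 fold changes were 2.48 ± 0.38 and 2.42 ± 0.38 (adjusted p = 0.00123 and 0.00176). In DNDD samples clec-180 stood at 271, 288, 105 and 95.2 CPM, where replicates 3 and 4 lay below wild type replicate 1, and its adjusted p was 0.0382 without and 0.00299 with the replicate block. The genes clec-72 and clec-76 were called higher in NNNN only, at log2 fold changes of 1.53 and 1.13. The gene clec-264 was called in NDNN and DNDD, at 1.22 and 1.32, and missed the fold threshold in NNNN at 0.90. The calls of clec-7, clec-64 and clec-78 in NDNN were of genes at no more than 2.22 CPM in any NDNN sample and were lost with the replicate block (adjusted p = 0.0144, 0.0147 and 0.0166).

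Of the 31 genes called lower, 12 were lower in all 3 strains, namely clec-5, clec-10, clec-47, clec-53, clec-56, clec-57, clec-60, clec-70, clec-150, clec-169, clec-218 and clec-227. Their median log2 fold change was -1.56 in NNNN, -1.63 in NDNN and -1.73 in DNDD. The deepest fall of the set was that of clec-10 in NNNN and that of clec-70 in NDNN and DNDD, and the most abundant member was clec-47.

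On chromosome IV (bases 3932708 to 3936307), clec-70, a gene known for its induction by bacterial infection, stood at 0.504, 1.25, 0.8285 and 1.42 CPM in NNNN, 0.607, 0.612, 1.11 and 2.26 CPM in NDNN, 0.870, 0.643, 1.01 and 1.71 CPM in DNDD and 10.6, 11.1, 4.51 and 5.89 CPM in wild type samples. Every transgenic sample was below every wild type sample. The log2 fold change was -2.88 ± 0.43, -2.72 ± 0.50 and -2.90 ± 0.41 in the 3 strains. The NDNN call was lost with the replicate block (adjusted p = 0.00347 without and 0.0116 with it).

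Also lower in each strain, clec-10 (chromosome II, bases 402678 to 404180) was at 4.75, 4.77, 3.25 and 7.33 CPM in NNNN, 4.59, 4.12, 5.09 and 11.6 CPM in NDNN, 13.9, 8.76, 10.3 and 17.3 CPM in DNDD and 45.6, 48.2, 37.5 and 33.0 CPM in the wild type. No transgenic sample reached the wild type range, and the log2 fold changes were -2.91 ± 0.26, -2.60 ± 0.33 and -1.70 ± 0.23 in NNNN, NDNN and DNDD. At a much higher level, clec-47 was at 234.97, 238, 156 and 108 CPM in NNNN, 251, 204, 191 and 107 CPM in NDNN, 215, 200.4, 182 and 140.0 CPM in DNDD and 528, 593, 473 and 502 CPM in the wild type. The 3 transgenic groups of clec-47 overlapped each other and lay far below the wild type samples, and the log2 fold changes were -1.40 ± 0.23, -1.38 ± 0.23 and -1.499 ± 0.15. Among the 10 highest members, clec-150 (chromosome III, bases 1002707 to 1006298) averaged 126 ± 25.2, 146 ± 16.5 and 152 ± 16.9 CPM in the transgenic groups against 393 ± 37.6 CPM in the wild type (mean ± SD, n = 4 each).

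Among the others of this set, clec-56, clec-169 and clec-227 fell at least as far as a log2 fold change of -1.79 in every strain. The samples of clec-56 were 5.61, 6.42, 4.94 and 18.8 CPM in NNNN, 5.30, 3.41, 11.5 and 16.9 CPM in NDNN, 11.9, 8.29, 17.6 and 25.2 CPM in DNDD and 29.7, 56.9, 68.6 and 63.6 CPM in the wild type. Replicate 4 was the highest sample of each transgenic group and replicate 1 the lowest of the wild type. The clec-56 calls were lost in 5, 5 and 6 of the 8 fits that left out a sample in the NNNN, NDNN and DNDD comparisons.

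Another 8 genes, clec-8, clec-54, clec-62, clec-63, clec-65, clec-85, clec-144 and clec-230, were called lower in NNNN and NDNN animals, and 3 more, clec-6, clec-206 and clec-229, in NNNN only (clec-206 in NDNN too with the block). The largest of these falls was in clec-229 (chromosome V, bases 15340006 to 15341504), with 0.216, 0.0391, 0.759 and 1.15 CPM in NNNN, 0.742, 0.225, 6.54 and 2.03 CPM in NDNN, 1.06, 6.90, 20.4 and 11.9 CPM in DNDD and 18.8, 28.3, 19.02 and 17.2 CPM in the wild type. NNNN and NDNN samples all lay below the wild type, while replicate 3 of DNDD was inside the wild type range and replicate 1 was far under it. The log2 fold change was -5.12 ± 0.68 in NNNN (adjusted p = 0.000624), -3.05 ± 0.79 in NDNN (adjusted p = 0.0179) and -1.04 ± 0.66 in DNDD (adjusted p = 0.241). In the NNNN and NDNN comparisons clec-229 passed the filter only through the wild type samples, so it had to differ there in order to be tested. Its neighbour clec-230 had the same order, at 4.96, 2.66, 5.04 and 6.68 CPM in NNNN, 9.41, 5.50, 23.9 and 10.5 CPM in NDNN and 10.5, 21.0, 45.3 and 31.1 CPM in DNDD, against 61.3, 63.5, 29.4 and 45.3 CPM in the wild type. Its NDNN call was lost with the block (adjusted p = 0.0251) and in 6 of 8 fits that left out a sample.

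With the replicate block the NDNN calls of clec-8 and clec-144 were lost as well (adjusted p = 0.011 and 0.0252), and clec-206 was called lower in NDNN at -1.60 (adjusted p = 0.022 without and 0.00154 with it). In DNDD animals the block added calls for clec-8, clec-54, clec-85 and clec-206, whose log2 fold changes there were -1.48, -1.08, -1.07 and -1.08 with the block, and for clec-45 and clec-258.

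The remaining 8 lower genes were called in NDNN or DNDD and not in NNNN. The genes clec-52, clec-71, clec-83, clec-86 and clec-210 were called lower only in DNDD, clec-170 in NDNN and DNDD, and clec-4 and clec-221 only in NDNN. The DNDD calls of clec-71 and clec-86 and the NDNN calls of clec-4 and clec-221 were among those lost in most fits that left out a sample. In this group, clec-170 (chromosome IV, bases 1266866 to 1274425) stood at 31.9, 32.9, 27.997 and 29.2 CPM in NNNN, 24.7, 25.3, 20.8 and 29.2 CPM in NDNN, 14.5, 13.1, 12.3 and 14.8 CPM in DNDD and 63.8, 62.9, 62.4 and 68.3 CPM in the wild type. All transgenic samples were below the wild type and all DNDD samples below every other sample. The log2 fold changes were -0.96 ± 0.07 (adjusted p = 4.20e-05), -1.27 ± 0.11 (adjusted p = 9.87e-05) and -2.22 ± 0.10 (adjusted p = 1.21e-05). The infection-induced gene clec-52 had the same order, at 125, 156, 137 and 122 CPM in NNNN, 124, 121, 119.9 and 90.8 CPM in NDNN, 76.6, 85.8, 79.0 and 72.0 CPM in DNDD and 196, 265, 232 and 253 CPM in wild type samples. For both genes the NNNN estimate was below 0 with an adjusted p under the threshold, and only the size fell short of a call.

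By level per kb of gene length over the 16 samples, the 10 highest members were clec-63, clec-3, clec-47, clec-83, clec-50, clec-48, clec-84, clec-1, clec-150 and clec-52. The highest, clec-63 (chromosome II, bases 12895638 to 12897446), gave 936, 872, 571 and 874 CPM in NNNN, 927, 678, 849.6 and 1203 CPM in NDNN, 1393, 1137, 1448 and 1954 CPM in DNDD and 1909, 2362, 1809 and 1896 CPM in wild type samples. It was called lower in NNNN and NDNN (-1.18 ± 0.17 and -1.03 ± 0.17, adjusted p = 0.000887 and 0.00208). In DNDD replicate 4 lay inside the wild type range and the adjusted p was 0.0882. In the wild type clec-63 and clec-47 ranked first and second at 1519 ± 190.0 and 865 ± 84.3 CPM per kb. In NDNN the levels of clec-3 and clec-63, 737 ± 113 and 697 ± 167 CPM per kb, lay within their spread of each other. Changes in clec-48 and clec-50 were smaller than the fold threshold in every strain, at log2 fold changes of -0.98, -0.91 and -0.85 for clec-48 and -0.66, -0.78 and -0.84 for clec-50. For clec-48 this depended on the fit. DESeq2 called it lower in NNNN, and edgeR's fit of all 16 samples called it lower in NNNN and NDNN. The sign was positive for clec-1 in all 3 strains (0.63, 0.96 and 0.53), and for clec-84 in NNNN and NDNN (0.63 and 0.51), without a call.

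The strains were next compared with each other in a fit of all 16 samples, in which 109 members were tested. Between DNDD and NNNN, 7 members were lower in DNDD, where 0.734% of all tested genes were called lower, and 2 were higher, beside 1.88%. The 7 were clec-2, clec-3, clec-68, clec-72, clec-74, clec-143 and clec-170, and the 2 were clec-6 and clec-230. Of the 8 genes that rose in all 3 strains 5 were thus called lower in DNDD than in NNNN, and the estimate was below 0 for all 8 of them, from -3.17 for clec-68 to -0.03 for clec-146.

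The sharpest differences were those of clec-68 (-3.17 ± 0.27, adjusted p = 2.77e-06) and clec-2 (-2.36 ± 0.20, adjusted p = 2.77e-06). They were also the 2 members called lower in DNDD than in NDNN (0.128% of all tested genes, with DESeq2 calling 4), at -2.39 ± 0.27 (adjusted p = 0.000464) and -1.77 ± 0.20 (adjusted p = 0.000496). For clec-3 the difference between DNDD and NNNN was -1.49 ± 0.28 (adjusted p = 0.00355), and its call was lost in 4 of the 16 fits that left out a sample. That between DNDD and NDNN was -1.21 ± 0.28, with an adjusted p of 0.0443 without and 0.0058 with the replicate block. In the opposite direction, clec-6 was at 3.82, 2.84, 2.65 and 2.43 CPM in DNDD against 1.58, 1.21, 0.656 and 0.844 CPM in NNNN (difference 1.45 ± 0.28, adjusted p = 0.00401). The difference of clec-230 was 2.48 ± 0.49 (adjusted p = 0.00497). Of these 16 fits, 5 lost the call of clec-230 and 3 each lost those of clec-6 and clec-143. Fitted on their own 8 samples, DNDD and NNNN gave 4 of the 7 lower calls and neither higher call, with clec-3, clec-72 and clec-143 lost. For DNDD and NDNN such a fit gave neither of the 2 calls. In that last comparison 0 members were called higher by edgeR and 0 by DESeq2 (0.128% of all tested genes by edgeR). At an unadjusted edgeR p below 0.05, 11 were higher, a share not counted over all genes.

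With the replicate block, 13 members were higher and 10 lower in DNDD than in NNNN (6.23% and 1.37% of all tested genes), and all 9 calls made without it were among them. The added lower calls were clec-17, clec-67 and clec-233. The added higher calls included clec-10, clec-54, clec-206, clec-229 and clec-247, each of which had its lowest mean in NNNN. Between DNDD and NDNN the block gave 3 higher and 4 lower calls (2.68% and 0.377%), the lower ones being clec-2, clec-3, clec-68 and clec-74.

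Between NDNN and NNNN, which differ at 1 of the 4 sites, 0 members were called by edgeR in either direction (0.35% of all tested genes were called higher and 0.0135% lower), and 0 were called by DESeq2. At an unadjusted edgeR p below 0.05, 12 members were higher and 6 lower, a share not counted over all genes. With the replicate block clec-6 alone was called, higher in NDNN at 1.15 (adjusted p = 0.0033), beside 0.418% of all tested genes called higher and 0.0135% lower. All 8 genes that rose in all 3 strains had estimates below 0 here, from -0.77 for clec-68 to -0.06 for clec-146, and the estimate for clec-3 was -0.28 ± 0.28. Differences of this size could not be told from the spread between samples, which does not show that the strains are alike.

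Members linked to infection in other work were counted as a list of 12: clec-4, clec-39, clec-41, clec-42, clec-49, clec-52, clec-60, clec-61, clec-67, clec-70, clec-71 and clec-85. Of the 9 that could be tested, 1 was higher and 3 lower in NNNN, 1 was higher and 4 lower in NDNN, and 0 were higher and 4 lower in DNDD animals. Over all tested genes the higher and lower shares were 7.03% and 6.12% in NNNN, 6.85% and 3.34% in NDNN, and 3.44% and 3.35% in DNDD. With the replicate block 3 of the 9 were lower in NDNN, without clec-70, and 5 in DNDD, with clec-85 added. The median log2 fold change of the 9 was -0.96, -0.96 and -1.22 in NNNN, NDNN and DNDD. The lower calls were clec-60, clec-70 and clec-85 in NNNN, the same genes and clec-4 in NDNN, and clec-52, clec-60, clec-70 and clec-71 in DNDD. The only gene of the list called higher was clec-67, at 53.95, 48.2, 34.9 and 32.4 CPM in NNNN and 40.9, 33.0, 20.2 and 22.7 CPM in NDNN against 16.5, 15.1, 12.1 and 9.70 CPM in the wild type, and its NDNN call was lost in 5 of the 8 fits that left out a sample. The gene clec-41 did not pass the test in any strain, and clec-49 fell short of the fold threshold at -0.96, -0.92 and -0.96. DESeq2 called clec-49 lower in NNNN, and edgeR's fit of all 16 samples called it lower in NNNN and NDNN. At most 0.706 CPM of clec-61, 0.23 CPM of clec-42, and 1 read in each of 2 samples of clec-39 were present, and clec-38, known for a role in axon outgrowth, likewise had 1 read in each of 2 samples.

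Known regulators of the worm's defence and intestinal transcription were mostly within the fold threshold. Of 22 such genes, all tested, 1 was called in NNNN, 1 in NDNN and 0 in DNDD by edgeR, and DESeq2 gave the same numbers. Over all tested genes edgeR called 7.03% higher and 6.12% lower in NNNN, 6.85% and 3.34% in NDNN, and 3.44% and 3.35% in DNDD. In each strain 12 of the 22 had an unadjusted edgeR p below 0.05, a share not counted over all genes. The called gene was elt-7, an intestinal GATA factor, which was lower at a log2 fold change of -1.49 ± 0.15 in NNNN (adjusted p = 0.000142) and -1.16 ± 0.19 in NDNN (adjusted p = 0.00192), and stood at -0.65 ± 0.18 in DNDD (adjusted p = 0.0283). The estimates for elt-2, the main intestinal GATA factor, were -0.53, -0.51 and -0.47 (edgeR adjusted p = 0.00281, 0.00144 and 0.00288). Those for pmk-1, the p38 kinase of the immune pathway, were -0.35, -0.44 and -0.58 (edgeR adjusted p = 0.0458, 0.0072 and 0.00288). All were under the fold threshold, although elt-2 in each strain and pmk-1 in NDNN and DNDD had an adjusted p below 0.01. The median over the 22 genes was -0.12, -0.21 and -0.32. Both elt-2 and elt-7 also stood on the list of intestinal markers.

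Many clec genes lie side by side. With genes joined when the gap between them was within 10 kb, 137 of the 220 members fell into 40 clusters, the largest of 13 genes. Called members occurred in 13 of these clusters, and 3 clusters held both higher and lower calls. The cluster on chromosome IV that begins with clec-67 had 11 members over 51.2 kb from the first start to the last, of which 9 were tested. Within it clec-67, clec-68, clec-72, clec-74 and clec-76 were called higher in at least 1 strain, clec-70 was called lower in all 3 and clec-71 was called lower in DNDD. The genes clec-68 and clec-70, whose starts lie 4.25 kb and 10.5 kb from that of clec-67, moved in opposite directions in all 3 strains. The other mixed clusters lay on chromosome II, where clec-143 rose and clec-60 fell in all 3 strains, and where clec-64 was called higher and clec-62, clec-63 and clec-65 lower.

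**Figure D4:**
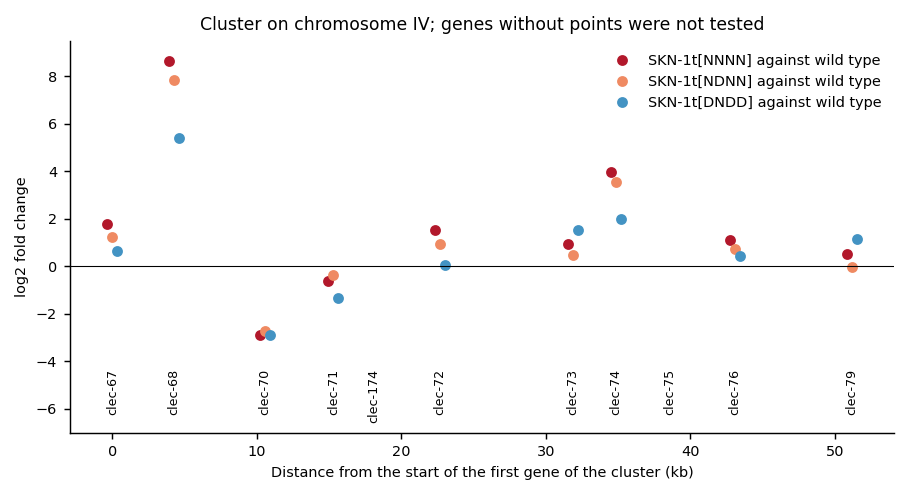
Log2 fold change against the wild type of the members of the chromosome IV cluster in the 3 transgenic strains, plotted by the distance in kb of each gene's start from that of clec-67. Points for clec-67, clec-68, clec-72, clec-74 and clec-76 lie above 0 in every strain, those of clec-70 and clec-71 lie below 0, and clec-174 and clec-75 were not tested.

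Other clusters moved in a single direction. On chromosome II, clec-2 and clec-3 both rose. On chromosome V, clec-54, clec-56, clec-57 and clec-227 lay within 7.67 kb from first to last start. Each was lower in NNNN and NDNN animals, with log2 fold changes from -1.45 to -2.48 in NNNN. The neighbours clec-229 and clec-230 on V, clec-4 and clec-8 on II, clec-5 and clec-6 on III, and clec-169 and clec-170 on IV were likewise called lower in at least 1 strain each. Neighbours that arose by duplication can share reads, and how the counting assigned such reads is not given in the sources used here, so values of closely similar neighbours are uncertain.

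The genes clec-87, clec-88 and clec-91 followed the replicate numbers. On the 8 samples of DNDD and the wild type, edgeR called them higher with the replicate block and not without it. The gene clec-87 was at 12.1, 6.29, 34.3 and 64.5 CPM in replicates 1 to 4 of DNDD, 0.791, 1.06, 3.45 and 11.7 CPM in NNNN, 1.55, 1.71, 7.17 and 9.44 CPM in NDNN and 2.16, 3.56, 7.88 and 9.85 CPM in the wild type. In every genotype replicates 3 and 4 were above replicates 1 and 2, and at each number DNDD was the highest of the 4 genotypes, although the groups as a whole overlapped. The log2 fold change of clec-87 in DNDD against the wild type was 2.33 ± 0.76 (adjusted p = 0.0474) without the block and 2.07 (adjusted p = 0.00212) with it. For clec-88 the values were 5.37, 3.25, 17.8 and 19.2 CPM in DNDD against 1.37, 1.83, 6.05 and 5.10 CPM in the wild type, with an adjusted p of 0.0895 without and 0.00196 with the block. For clec-91 they were 3.25, 1.79, 10.8 and 12.04 CPM against 0.914, 1.48, 2.67 and 3.96 CPM, with 0.0922 without and 0.00694 with the block. The other 7 members that the block added to the higher edgeR calls were clec-64, clec-73, clec-79, clec-117, clec-123, clec-151 and clec-180. Without a block, DESeq2 also called clec-64, clec-87 and clec-180 higher in DNDD than in the wild type. Replicates 3 and 4 alone gave calls of clec-87 and clec-88, and edgeR's fit of all 16 samples called clec-180.

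The summed level of 6 oocyte markers had the same layout, at 29.9, 16.04, 82.9 and 238 CPM in DNDD, 12.7, 11.6, 22.3 and 83.8 in NNNN, 9.31, 9.30, 25.9 and 46.6 in NDNN and 7.97, 9.60, 30.7 and 41.7 CPM in wild type samples. That of 7 sperm markers was 64.7, 46.3, 223 and 215 CPM in DNDD against 22.4, 27.2, 85.8 and 67.2 CPM in the wild type. That of 6 germline markers was 188, 96.2, 238 and 718 against 53.5, 50.8, 149 and 150.1 CPM. With the block, 5 of the 6 oocyte, 6 of the 7 sperm and 5 of the 6 germline markers were called higher in DNDD than in the wild type, and without it none of them was. The part of these markers' differences in the values of clec-87, clec-88 and clec-91 was not tested.

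**Figure D5:**
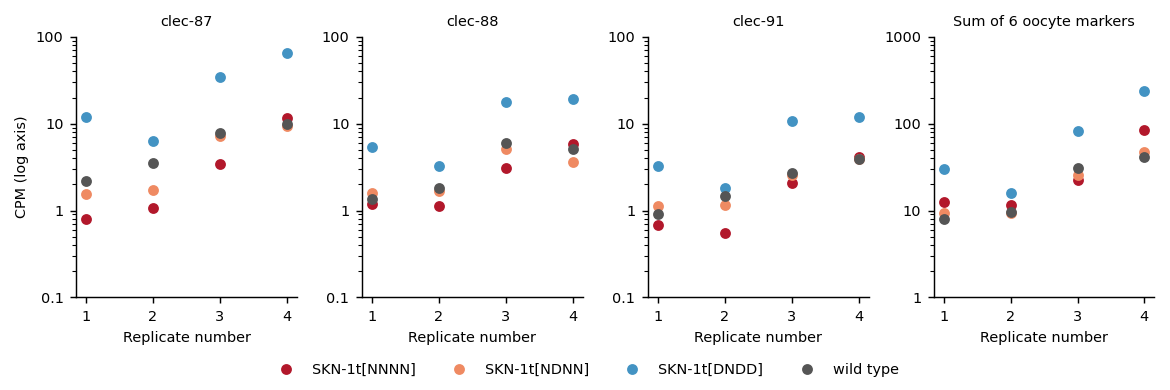
Level in CPM on log axes of clec-87, clec-88 and clec-91 and the summed level of 6 oocyte markers, by replicate number, with each genotype in its own colour. Replicates 3 and 4 lie above replicates 1 and 2 in each genotype, and DNDD is the highest genotype at every replicate number in all 4 panels, reaching 64.5 CPM for clec-87.

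Part of some genes' sequence is shared with another gene. The exons of 32 members overlap those of another gene in the annotation, and since the strand setting of the counting is not given in the sources used here, reads from the shared part cannot be assigned with certainty. For clec-3, 47 of 1408 exonic bases overlap C41H7.2 on the opposite strand, which stood at 1.93 ± 0.324, 1.89 ± 0.289 and 1.30 ± 0.281 CPM in the transgenic groups and 1.92 ± 0.712 CPM in the wild type. For clec-143, 157 of 1394 bases overlap tnc-2, at 5.86 ± 1.72, 5.98 ± 2.44 and 4.63 ± 0.830 CPM in the transgenic groups and 4.57 ± 1.11 CPM in the wild type (mean ± SD, n = 4 each). Neither C41H7.2 nor tnc-2 was called in any strain. For clec-85, 397 of 1434 bases overlap Y54G2A.40 on the same strand. For clec-87, 138 of 960 overlap iars-2 on the opposite strand at 55.5 ± 5.92 CPM in DNDD and 64.04 ± 6.60 CPM in the wild type. For clec-86, 63 of 599 overlap alh-10 on the opposite strand, which was called higher in NNNN and NDNN animals. Overlaps were also found for clec-60, clec-83, clec-88, clec-91, clec-97, clec-210, clec-221 and clec-264.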

How the data were processed

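The values are the deposited gene-level read counts, which the authors made from paired reads of stranded polyA libraries with STAR 2.7.7a against WBcel235, after FastQC 0.11.9. All 220 clec genes matched the Ensembl annotation of WBcel235 used here, from which coordinates were taken, and gene length is the column of the count table. The members and all gene lists were chosen with earlier results of these data known. Samples were grouped by their labels, and the study's methods describe its biological replicates as separate populations of worms, so p-values measure the spread between populations. No 2 replicates of a group agreed within sampling noise (chi-square per degree of freedom 16.7 to 162 over 24 pairs).

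Strain against wild type was tested on those 8 samples alone, and strain against strain within 1 model of 16 samples, over all genes, with the quasi-likelihood test of edgeR 4.0.16 in R 4.3.3, TMM scaling, filterByExpr (minimum count 10, minimum total 15) and Benjamini-Hochberg adjustment. The procedure was tested on simulated data. Alternatives were DESeq2 1.42.0, RLE scaling, other filters, cutoffs, dispersions and prior counts, left-out samples, replicates 1 and 2 or 3 and 4 only, and the replicate number as a block. Deviations of samples with the same number in their titles correlated at 0.184 to 0.795 in the comparisons other than NNNN against the wild type, where 1 pair was at 0.0762, so the block was used beside results of those 5 comparisons.

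Named were the 30 largest changes among called members averaging at least 1 CPM, the 10 highest levels and the infection-linked list. Also named were 5 members that edgeR called with the block and not without it in any of the 6 comparisons. Other called members, and other members named as neighbours or as called with the block, were named after their values were seen.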

Additional observations from a re-analysis of the deposited data

Results flagged for a closer look

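In 11 of the 148 groups of 4 samples checked, 1 sample stood apart from the other 3 by Dixon's criterion, which chance gives in about 1 in 20 groups. Replicate 4 was the sample in 8 of them. In NNNN it stood high for clec-56 (18.8 CPM), clec-206 (3.53 CPM) and clec-227 (1.84 CPM). In NDNN it stood high for clec-10 (11.6 CPM) and clec-143 (64.9 CPM) and low for clec-52 (90.8 CPM). In the wild type it stood high for clec-2 (2.02 CPM) and clec-206 (18.4 CPM). The others were clec-17 in NNNN replicate 1 (11.4 CPM), clec-169 in DNDD replicate 1 (1.40 CPM) and clec-229 in wild type replicate 2 (28.3 CPM), all high.

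The strains differed by a direct test in their response of 9 genes. Between DNDD and NNNN the log2 difference was -3.17 for clec-68, -2.36 for clec-2, -1.85 for clec-74, -1.49 for clec-3, -1.36 for clec-72, -1.16 for clec-170, -1.06 for clec-143, 1.45 for clec-6 and 2.48 for clec-230. Between DNDD and NDNN it was -2.39 for clec-68 and -1.77 for clec-2.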

How the results depend on the processing

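No member's estimate changed sign past the threshold under any alternative run, and the scaling moved the median of all genes by less than 0.1 on the log2 scale. Counts of called members moved as follows. The shares of all tested genes called under the alternatives of this paragraph were not counted. A general change in the number of calls therefore cannot be told apart from a change in the clec genes. With the wider cutoff (fold change of 1.5, adjusted p 0.05) 20 members were higher and 36 lower in NNNN, 35 lower in NDNN, and 14 higher and 33 lower in DNDD, with 27 called between DNDD and NNNN and 6 between DNDD and NDNN. From replicates 3 and 4 only, 12 were lower in NNNN and 8 higher and 3 lower in NDNN, and DNDD differed from NNNN in 5 and from NDNN in 1. From replicates 1 and 2 only, DNDD differed from NNNN in 16. These sets hold fewer samples. With at least 10 counts in every sample, 9 were higher in NDNN, and 1 differed between DNDD and NDNN. DESeq2 called 19 between DNDD and NNNN and 4 between DNDD and NDNN, and separate fits of 8 samples called 4 and 0 (the cause was not tested). Against the wild type, DESeq2 called 13 higher and 30 lower in NNNN, 13 and 28 in NDNN and 13 and 25 in DNDD. There edgeR's fit of all 16 samples called 12 and 28 in NNNN, 11 and 30 in NDNN and 11 and 18 in DNDD.

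With the replicate block, 19 members were higher in DNDD than in the wild type, and the strain comparisons gave 23 (DNDD and NNNN), 1 (NDNN and NNNN) and 7 (DNDD and NDNN). In NNNN against the wild type, where the numbers did not pair the samples by the criterion used, the block gave 13 higher and 20 lower members, beside 6.32% and 5.28% of all tested genes. There the lower calls of clec-53, clec-60 and clec-144 were lost and clec-233 was called higher. The higher calls that the block added between DNDD and NNNN also included clec-87, clec-88, clec-91, clec-97, clec-117 and clec-151. Between DNDD and NDNN they were clec-87, clec-88 and clec-91. Other calls changed by the block stand in the report.

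Leaving out each sample in turn, the counts in NNNN ran from 10 to 13 higher and 16 to 24 lower, in NDNN from 9 to 14 and 13 to 22, and in DNDD from 6 to 9 and 12 to 19. The 13 and the 12 were without wild type replicate 2, and the 6 was without wild type replicate 2 or 4. Between strains they were 6 to 12 (DNDD and NNNN), with 6 without DNDD replicate 3 or 4 or NNNN replicate 2 or 3, 2 to 3 (DNDD and NDNN) and 0 to 0 (NDNN and NNNN). Depth limited the members under 10 counts, which were not tested.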
